A study of Mus musculus with 33 samples.

Results

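RNA from mouse embryonic stem (ES) cells and from the embryoid bodies (EBs) they form was examined for the collagens and the proteins that fold, cross-link, cut and protect them. The members were all genes of the expression table whose symbol is that of a collagen chain (leaving out Col4a1 and Col4a2) or begins with Adamts, Mmp, Timp or Plod, together with Loxl1 to Loxl4, Fn1, Postn, Tnc, Fbn1, Fbn2, Vcan and Serpinh1. This rule gave 78 of the 16336 genes of the table. It names 107 protein-coding genes of the GENCODE M21 annotation of mm10, and the other 29, among them Lox, Col10a1 and Timp4, were not analysed here. In 9 of the 78 members the highest mean of any group was under 2 TPM.

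The groups were 3 lines on 4 days. E14Tg2a is a wild-type ES cell line of strain 129/Ola, and ΔK9.1 and ΔK9.2 are 2 independent clones of it, each grown from 1 cell, that lost on both alleles the stretch between the Nanog enhancer and promoter where H3K9me3, a repressive histone mark, was found. All lines were grown in serum with LIF on gelatin (day 0) and were collected on days 4, 6 and 8 of EB differentiation without LIF. The aggregates were kept in suspension for 4 days and then replated on gelatin, which is itself denatured collagen, so days 6 and 8 are of attached outgrowths and day 4 is not. There were 3 replicates from independent assays per line and day, except on day 6, which had replicates 2 and 3 only, giving 33 libraries.

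A collagen molecule is a triple helix of chains that are hydroxylated and folded inside the cell with the help of the chaperone HSP47, encoded by Serpinh1. Fibril-forming collagens assemble outside the cell after their ends have been cut off, by ADAMTS proteases at the amino end, and lysyl oxidases then cross-link them. Matrix metalloproteinases (MMPs) cut the finished matrix and TIMPs inhibit the MMPs. In the early mouse embryo, type IV collagen of basement membranes is made from the blastocyst stage on, in quantity by parietal endoderm, while type I and type III collagen are typical of mesenchyme. In RNA from whole cultures, fewer cells of a type and less RNA per cell cannot be told apart.

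All levels are TPM, a unit scaled within each library and corrected for transcript length. The listed TPM summed to between 994284 and 998266 per library, 12903 to 13905 genes reached 1 TPM, and the number of reads is unknown from these values. Tests were made with limma on log2(TPM + 1), which understates the change of low genes, and a member was called at an adjusted p (Benjamini-Hochberg over all genes tested) under 0.05 with a difference above 1 on that scale. Some libraries stood apart. On day 8, replicate 2 of E14Tg2a was the highest of the 3 E14Tg2a libraries in 60 of the 78 members, and its members summed to 4969 TPM against 2263 TPM in replicate 1 and 2492 TPM in replicate 3. Its summed markers of endothelium and blood also stood highest, at 3902 TPM against 913 TPM in the lowest of the 3, and most of that sum was Hbb-bh1, an embryonic globin, at 3735 TPM against 809 and 866 TPM. The main day 8 counts and sums are therefore also given without it. On day 0, replicate 1 of E14Tg2a was the highest of the 9 libraries for Col1a1, Col1a2, Serpinh1 and Timp3. Its summed markers of primitive and parietal endoderm were 288 TPM, against 26.8 TPM in the lowest E14Tg2a library, 22.8 to 38.7 TPM in ΔK9.1 and 26.7 to 143 TPM in ΔK9.2, and those of visceral endoderm 36.2 TPM against 3.87 TPM in the lowest. The part of these cells in the day 0 levels was not tested.

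The first question was how these genes change as wild-type cells differentiate. Between day 0 and day 4 of E14Tg2a, 3 members rose (3.67% of all genes rose) and 4 fell (4.07% of all genes). Mmp25, a membrane-anchored MMP, read 0.964, 0.221 and 0.381 TPM on day 0 and 3.84, 6.14 and 5.44 TPM on day 4, a rise of 2.02 ± 0.34 (SE) on the log2 scale. Timp3 (1.44) and Adamts15 (1.01) were the other risers. Timp1, a secreted MMP inhibitor, fell from 25.7, 29.7 and 29.6 TPM to 6.78, 8.91 and 8.65 TPM. Its difference was -1.69 on the log2 scale, and Col13a1 (-1.78), Mmp11 (-1.29) and Adamts14 (-1.02) fell with it. No fibril-forming collagen was called by limma on day 4, and Col1a1 stood at 0.348, 0.432 and 0.528 TPM.

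By day 6, 28 members had risen in E14Tg2a (8.95% of all genes) and 9 had fallen (8.69%). Col1a1, the α1 chain of type I collagen, had the largest rise, to 24.4 and 10.5 TPM in the 2 libraries (log2 difference 3.02 ± 0.47, adjusted p = 1.52e-05). Col23a1, a transmembrane collagen, followed with 2.43. Fbn2 (2.35), a fibrillin of elastic microfibrils, Col5a1 (2.25) and Col1a2 (2.21) came next. Mmp11 (-2.25), Timp1 (-2.24), Adamts14 (-1.82), Col6a4 (-1.29) and Mmp17 (-1.23) led the falls.

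On day 8, 51 of the 78 members stood above day 0 in E14Tg2a (15.9% of all genes were called higher) and 5 stood below (11.0%). The median change of the members was 1.59 on the log2 scale, against 0.05 for all genes. The members' share of the listed TPM was 0.0668% at the start and 0.0688% in the aggregates, and it reached 0.115% by day 6 and 0.325% by day 8 (0.238% without replicate 2). The risers were chosen by their day 8 level, so their day 6 level relative to it is a description only: the day 6 mean was a median of 27.6% of the day 8 mean over the 51 risers (38.6% without replicate 2 of day 8), 12 of them were at or under 10% on day 6, and 12 were over 50%.

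Type I collagen, the main collagen of skin, bone and tendon, is built from the products of Col1a1 and Col1a2. Col1a1 went from 3.04, 0.474 and 0.567 TPM on day 0 to 197, 488 and 192 TPM on day 8, a rise of 6.98 ± 0.42 on the log2 scale (adjusted p = 1.84e-12). Col1a2 went from 1.17, 0.0331 and 0.0872 TPM to 57.4, 216 and 66.3 TPM (6.14 ± 0.49, adjusted p = 1.56e-10). All 3 day 8 libraries lay far above all day 0 libraries for both chains, and the ratio of Col1a1 to Col1a2 TPM on day 8 was between 2.26 and 3.44.

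Col3a1, the chain of type III collagen, a partner of type I in soft tissue, read 0.164, 0.011 and 0.0218 TPM on day 0 and 30.3, 549 and 49.7 TPM on day 8 (6.49 ± 0.74, adjusted p = 4.77e-08). Replicate 2 was far above the others here. Postn, which encodes periostin, a matricellular protein of connective tissue, was listed at 0 in replicates 2 and 3 on day 0 and read 35.4, 397 and 60.1 TPM on day 8 (6.53 ± 0.64, adjusted p = 4.35e-09). Col5a1, which helps to start type I fibrils, rose by 4.32 ± 0.31, to 54.1, 133 and 56.4 TPM.

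By role, 7 of 11 fibril-forming collagens, 4 of 8 fibril-associated collagens, 8 of 10 network, beaded-filament and anchoring collagens and 1 of 4 multiplexin and transmembrane collagens rose by day 8. All 6 matrix glycoproteins with versican rose, Fn1 only with replicate 2 of day 8 and replicate 3 of day 0 in the fit, as did 6 of 8 genes for the chaperone and the cross-linking enzymes. Of the enzymes that cut the matrix and their relatives, 5 of 10 MMPs, 2 of 3 TIMPs, 11 of 14 ADAMTS proteases and 1 of 4 ADAMTS-like proteins rose. The 5 members that fell were Adamts14 (-2.01), Col6a4 (-1.51), Mmp17 (-1.26), Timp1 (-1.08) and Col5a3 (-1.06), so the fibril-forming collagens and the TIMPs each held members that moved in opposite directions. Serpinh1 was the most abundant member on day 8, at 611, 942 and 772 TPM (3.42 ± 0.43 over day 0, adjusted p = 2.53e-07). Fn1, fibronectin, was the most abundant on day 0, at 184, 199 and 149 TPM. It read 400, 724 and 254 TPM on day 8, with a smaller rise of 1.25 ± 0.43 (adjusted p = 0.0147). This rise was called in 4 of the 6 fits that left out 1 library, and was 0.85 without replicate 2 of day 8 (adjusted p = 0.12) and 1.13 without replicate 3 of day 0 (adjusted p = 0.0534), neither of them called.

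**Figure D1:**
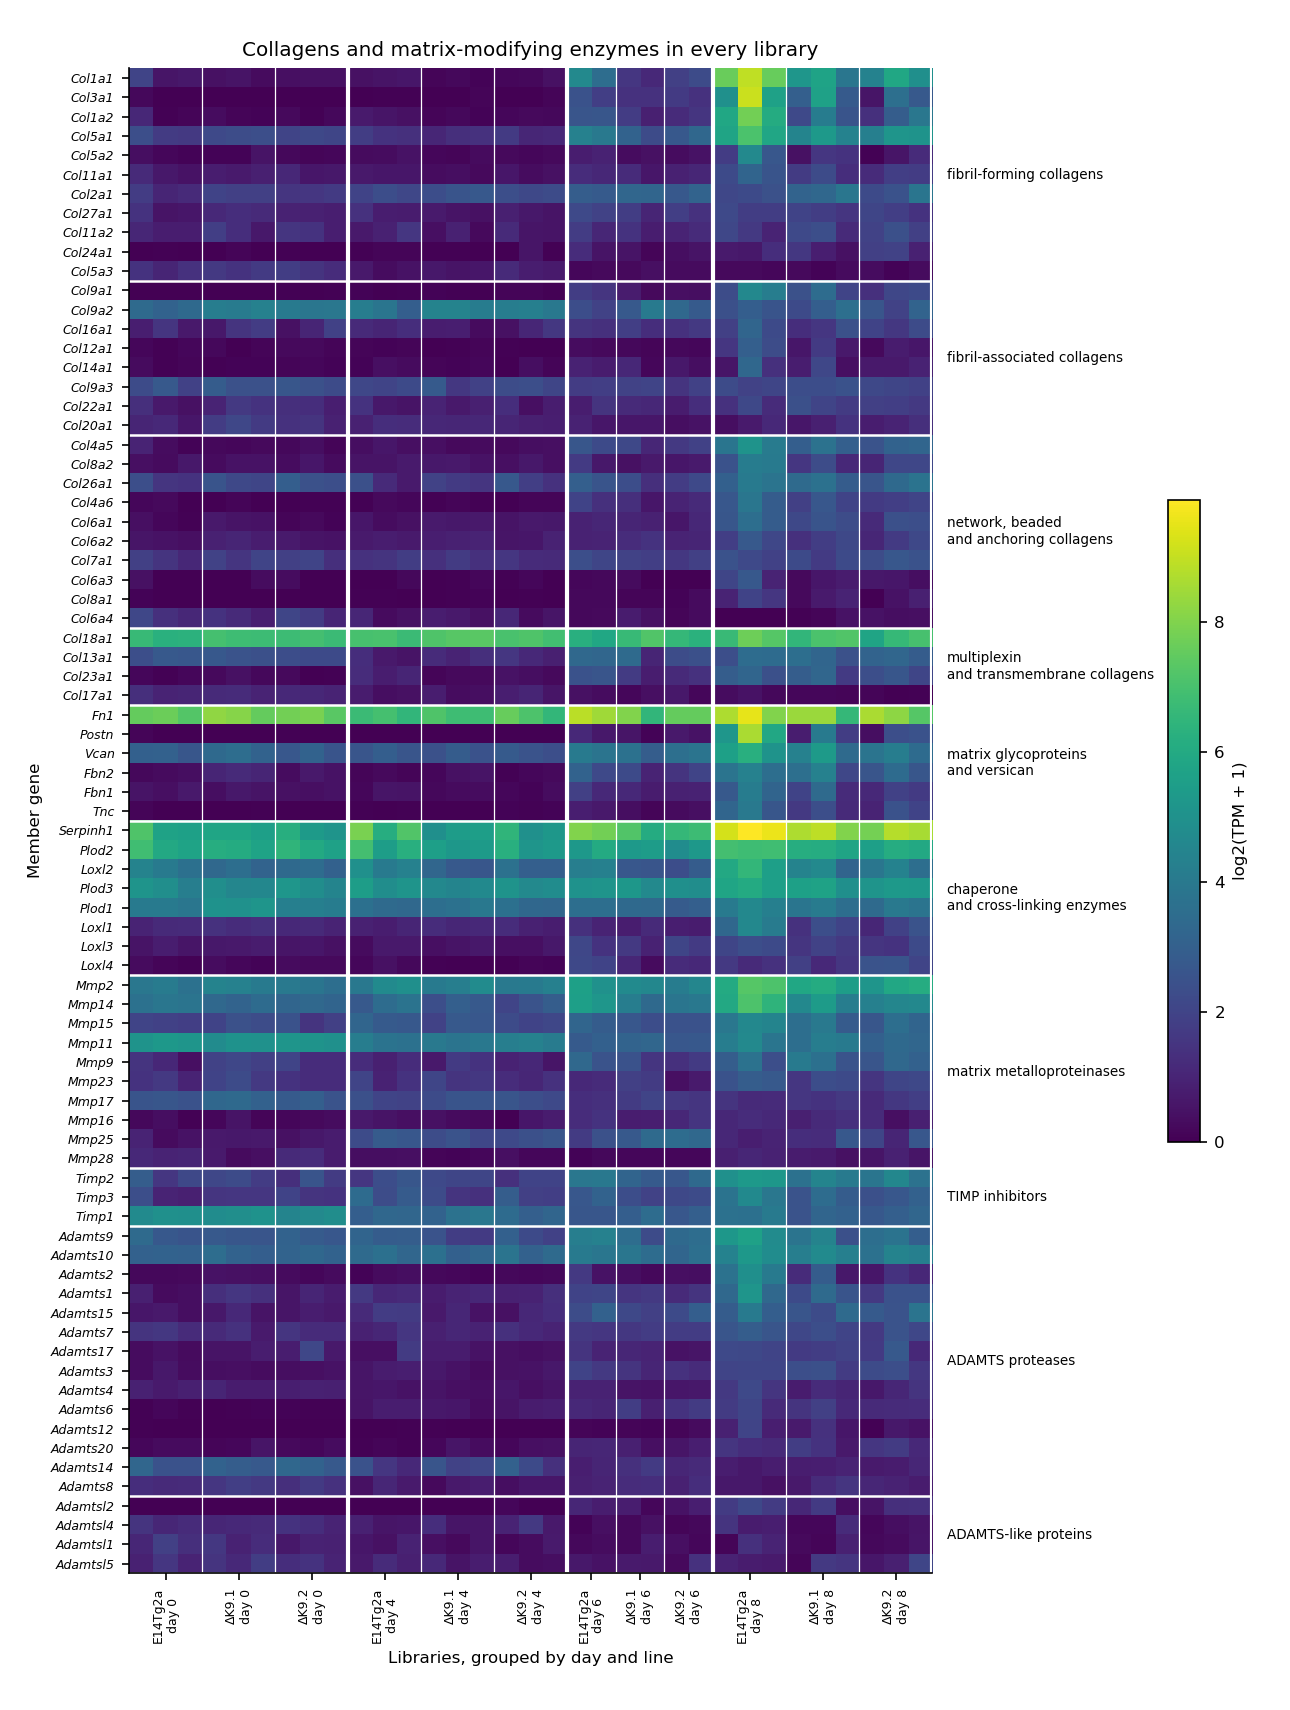
Level of each of the 78 members (rows, ordered by role) in each of the 33 libraries (columns, grouped by day and line), coloured by log2(TPM + 1). Col1a1, Col1a2, Col3a1 and Postn go from dark on days 0 and 4 to bright in the 3 E14Tg2a libraries of day 8, replicate 2 being the brightest, and are darker in the 6 clone libraries of that day, while Fn1, Col18a1 and Serpinh1 are bright on every day.

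The bases upstream of 4 of the members with the largest or most abundant change are shown, to let the sequence before the start be read beside the values. RefSeq promoter entries (GRCm38.p6) were at hand for 53 of the 78 members, giving 59 promoters. The other 25, Col1a1, Fn1, Col5a2, Loxl1, Loxl2 and Mmp2 among them, had none in the table used here. Each line gives the 250 bases before the annotated start, 5′ to 3′ on the gene's strand, and no annotated exon lies in any of the 4 windows. They are chr6:4505368-4505617 (plus strand) for Col1a2, chr1:45311288-45311537 (plus) for Col3a1, chr3:54360857-54361106 (plus, 1 of 2 entries) for Postn and chr7:99353240-99353489 (minus) for Serpinh1. Capitals mark TATAAA (the TATA box), CCAAT (the CCAAT box) and GGGCGG (a GC box bound by SP factors).
Col1a2: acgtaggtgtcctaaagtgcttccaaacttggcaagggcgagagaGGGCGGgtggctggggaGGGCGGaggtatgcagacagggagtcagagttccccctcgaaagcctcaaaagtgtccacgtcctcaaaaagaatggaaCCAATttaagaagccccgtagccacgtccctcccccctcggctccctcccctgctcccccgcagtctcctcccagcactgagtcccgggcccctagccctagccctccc
Col3a1: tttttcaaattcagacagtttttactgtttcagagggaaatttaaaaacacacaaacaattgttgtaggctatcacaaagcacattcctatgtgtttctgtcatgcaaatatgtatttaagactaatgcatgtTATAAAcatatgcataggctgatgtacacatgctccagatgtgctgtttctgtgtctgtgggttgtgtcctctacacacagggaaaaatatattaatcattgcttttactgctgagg
Postn: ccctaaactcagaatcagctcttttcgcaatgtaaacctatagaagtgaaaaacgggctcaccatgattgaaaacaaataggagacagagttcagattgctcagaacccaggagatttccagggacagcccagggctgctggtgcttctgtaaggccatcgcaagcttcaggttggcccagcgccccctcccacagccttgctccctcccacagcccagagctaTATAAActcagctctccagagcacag
Serpinh1: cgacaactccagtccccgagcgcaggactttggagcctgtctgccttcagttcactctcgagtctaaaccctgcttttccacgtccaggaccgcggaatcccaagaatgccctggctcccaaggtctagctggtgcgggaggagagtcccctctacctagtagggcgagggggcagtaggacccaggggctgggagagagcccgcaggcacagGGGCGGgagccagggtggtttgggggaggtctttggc

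Postn has TATAAA from 26 to 21 bases before the start, and Col3a1 has it from 117 to 112 bases before. Col1a2 has no TATAAA in this window but CCAAT from 109 to 105 bases before the start and GGGCGG at 205 to 200 and at 188 to 183. Serpinh1 has GGGCGG from 37 to 32 bases before the start. The GC content of the windows was 62.0% for Col1a2, 35.2% for Col3a1, 52.0% for Postn and 63.6% for Serpinh1. Searched on both strands in the same 250 bases, TATAAA was in 16.9% of the members' promoters, 6.52% of the promoters of genes in the table and 12.4% of all 32851 promoters. GGGCGG was in 71.2% of the members' promoters, 56.0% of the promoters of genes in the table and 32.7% of all. In the same order, CCAAT was in 28.8%, 35.5% and 33.8%, TGANTCA (the AP-1 site, N any base) in 1.69%, 4.42% and 6.75%, and a CArG box in 1.69%, 1.21% and 1.47%. A match is a description of the letters and not a bound site.

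The second question was whether the clones differed from E14Tg2a before differentiation. On day 0 a member was called when both clones passed an adjusted p under 0.05 with a difference above 0.3 in the same direction, over 14504 genes with at least 1 TPM. Of 47 members tested, limma called 0 higher (0.0% of all genes) and 0 lower (0.0758%). At an unadjusted p under 0.05 in both clones with the same sign, 2 members were higher and 2 lower, against 644 and 338 of all genes. Without replicate 1 of E14Tg2a, 1 member, Col18a1, was called higher and 0 lower, with 59 and 76 of all genes. With the replicate number as a block, 2 members, Col9a2 and Col26a1, were called higher and 0 lower, with 68 and 77 of all genes. The 6 clone libraries all lay above the 3 E14Tg2a libraries for 5 members (5.17% of all genes), Adamts17, Adamts8, Col18a1, Col9a2 and Plod1. They all lay below for 3 members (2.75%), Col1a1, Loxl2 and Mmp14.

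Plod1, a lysyl hydroxylase, differed between the clones on day 0. It read 15.9, 15.7 and 13.7 TPM in E14Tg2a, 31.9, 31.3 and 34.2 TPM in ΔK9.1 and 18.3, 18.5 and 16.6 TPM in ΔK9.2. The difference from E14Tg2a was 1.06 in ΔK9.1 (adjusted p = 0.00102) and 0.22 in ΔK9.2 (adjusted p = 0.527). Loxl2 and Mmp14 lie on chromosome 14 of mm10 (69609068 to 69695834 and 54431612 to 54445364), inside the segment from 50 to 80 Mb where most genes read lower in both clones. On day 0 the 236 genes tested there had median differences of -0.59 (ΔK9.1) and -0.52 (ΔK9.2), against 0.08 and 0.05 elsewhere, and 215 and 220 of them were below 0. Over the 261 genes of the segment tested later, the median for the mean of both clones was -0.56 on day 4 (243 below 0), -0.78 on day 6 (246 below 0) and -0.67 on day 8 (237 below 0), against -0.062, -0.024 and 0 elsewhere. The part of this segment in the values of Loxl2 and Mmp14 was not tested.

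During differentiation the mean of both clones was compared with E14Tg2a on each day. On day 4, limma called 0 members higher (0.0857% of all genes) and 2 lower (0.71%), Serpinh1 and Loxl2. Higher at an unadjusted p under 0.05 were 0 members, against 580 of all 16336 genes. Serpinh1 read 239, 70.6 and 144 TPM in E14Tg2a, 29.4, 42.9 and 45.9 TPM in ΔK9.1 and 88.4, 30.4 and 36.3 TPM in ΔK9.2 (-1.65 ± 0.37, adjusted p = 0.0148). Replicate 1 of ΔK9.2 overlapped the E14Tg2a range, and within each replicate number both clones lay below E14Tg2a. The labels do not say that a number marks 1 assay. Serpinh1 was not called with only the groups compared (adjusted p = 0.0954), nor without E14Tg2a replicate 1 (-1.24, adjusted p = 0.0934) or replicate 3 (-1.60, adjusted p = 0.108), and was called in the other settings tried. Loxl2, a lysyl oxidase-like enzyme, read 30.2, 15.8 and 19.4 TPM in E14Tg2a, 8.65, 5.75 and 5.22 TPM in ΔK9.1 and 11.8, 7.04 and 7.01 TPM in ΔK9.2, with no overlap (-1.40 ± 0.27, adjusted p = 0.00511), and was called in each of these fits too. All clone libraries lay above E14Tg2a for 1 member on day 4, Adamts20 (1.63% of all genes), and below it for 4, Col1a2, Col23a1, Loxl2 and Loxl4 (5.95%).

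On day 6, 0 members were called higher (0.251% of all genes) and 6 lower (1.37%) by limma. Higher at an unadjusted p under 0.05 were 4 members, against 1008 of all 16336 genes. Col1a1 was 24.4 and 10.5 TPM in E14Tg2a, 1.92 and 1.18 TPM in ΔK9.1 and 2.64 and 3.74 TPM in ΔK9.2 (-2.40 ± 0.45, adjusted p = 0.00211). Loxl2 (-1.62), Mmp14 (-1.54), Col5a1 (-1.31), Col23a1 (-1.28) and Loxl4 (-1.14) were the others. All 4 clone libraries lay below both E14Tg2a libraries for 32 members (19.6% of all genes) and above them for 6 (12.8%), Adamts14, Col18a1, Col9a2, Mmp17, Mmp25 and Timp1. These day 6 calls rest on 2 libraries per line, so leaving out 1 leaves 1 library in that group. Without replicate 2 of E14Tg2a, Col1a1 was at -1.83. The calls were not kept in every such fit, and the number called over all genes moved too.

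On day 8 most roles held members that were called lower in the clones. In the mean of both clones, 26 of the 78 members were below E14Tg2a (3.42% of all genes were called lower) and 0 above by limma (0.826% of all genes). Higher at an unadjusted p under 0.05 were 4 members, against 2186 of all 16336 genes. The median difference of the members was -0.60 on the log2 scale, against -0.0035 for all genes, and 59 of the 78 were below 0. All 26 were among the 51 that rose in E14Tg2a, but both calls use the same 3 E14Tg2a libraries of day 8, so nothing is read from the overlap. Their mean level stood at a median of 30.5% of the E14Tg2a mean for ΔK9.1 (range 3.77% to 54.2%), and for ΔK9.2 it was 21.9% (range 1.85% to 45.7%). Without replicate 2 of E14Tg2a these medians were 43.7% and 29.4%, and without replicate 2 of all 3 lines 27.5% and 26.5%. These 26 were chosen for being lower; over the 51 risers the medians were 45.8% and 38.3%, and over all 78 members 56.2% and 50.8%. All 6 clone libraries lay below all 3 E14Tg2a libraries for 26 members (7.99% of all genes), 17 of which were also among the 26 called, and above them for 2, Adamts8 and Col6a4 (5.44%).

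Of the fibril-forming collagens, 5 of 11 were lower. Col1a1 read 35.4, 52.8 and 13.8 TPM in ΔK9.1 and 19.8, 58 and 29.7 TPM in ΔK9.2, against 192 TPM or more in every E14Tg2a library (-3.05 ± 0.37, adjusted p = 5.18e-06). Col1a2 read 3.52, 16.5 and 4.91 TPM in ΔK9.1 and 1.58, 6.45 and 14 TPM in ΔK9.2 (-3.73 ± 0.43, adjusted p = 3.12e-06). Neither chain overlapped E14Tg2a in any library, and each line kept more Col1a1 than Col1a2 TPM, with a ratio between 2.12 and 12.5 in the clones. Col3a1 read 6.92, 49.6 and 6.05 TPM in ΔK9.1 and 0.455, 11.2 and 5.74 TPM in ΔK9.2 (-3.52 ± 0.64, adjusted p = 0.000431). The ΔK9.1 library at 49.6 TPM, replicate 2, lay inside the E14Tg2a range, which began at 30.3 TPM, and below replicate 2 of E14Tg2a. Col5a2 (-2.15 ± 0.35) and Col5a1 (-1.46 ± 0.27) were also lower. Col11a1, a cartilage and vitreous fibril chain, had a difference of -0.97 and so stayed just short of the size of 1. Col2a1, the main collagen of cartilage, lay on the other side, at 3.29, 3.68 and 4.52 TPM in E14Tg2a, 7.86, 8.75 and 13.9 TPM in ΔK9.1 and 3.71, 4.64 and 13.4 TPM in ΔK9.2 (0.89 ± 0.23, adjusted p = 0.00879, under the size of 1).

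Among the other collagens, Col12a1 (-1.51) and Col9a1 (-1.42) of the fibril-associated chains were lower. So were Col4a5 (-1.25) and Col4a6 (-1.14), the chains of a minor basement membrane network, Col6a3 (-1.38) of the beaded filaments and Col8a2 (-1.86). Col6a1 (-0.87) and Col6a2 (-0.52), the partners of Col6a3 in type VI collagen, were under the size of 1. None of the 4 multiplexin and transmembrane collagens was called by limma. Among them 1 was lower at an unadjusted p under 0.05, as were 3041 of all 16336 genes. Col18a1, the source of endostatin, stood at 104, 207 and 153 TPM in E14Tg2a, 90.2, 135 and 145 TPM in ΔK9.1 and 53.6, 97.2 and 126 TPM in ΔK9.2 (-0.53, adjusted p = 0.0648).

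Of the glycoproteins, Postn had the largest difference of any member, at 0.709, 15.3 and 2.51 TPM in ΔK9.1 and 0.303, 4.22 and 4.57 TPM in ΔK9.2 (-4.61 ± 0.56, adjusted p = 5.21e-06). Its highest clone library was below its lowest E14Tg2a library. Vcan, a large proteoglycan of provisional matrix, was at 48.5, 74.6 and 32.9 TPM in E14Tg2a, 19.3, 40.6 and 9.61 TPM in ΔK9.1 and 13.1, 17.1 and 9.97 TPM in ΔK9.2 (-1.55 ± 0.29, adjusted p = 0.000481). The highest ΔK9.1 library, replicate 2, overlapped E14Tg2a for Vcan and lay below replicate 2 of E14Tg2a. Tnc (-1.50 ± 0.25), tenascin C, and Fbn1 (-1.47 ± 0.31), fibrillin 1, were lower too. Fn1 at 333, 338 and 93.5 TPM in ΔK9.1 and 396, 297 and 155 TPM in ΔK9.2 overlapped E14Tg2a and was not called (-0.80 ± 0.37, adjusted p = 0.135), and neither was Fbn2 (-0.77, adjusted p = 0.0955). The Fn1 value ran from -1.16 without E14Tg2a replicate 3 to -0.41 without its replicate 2, and was -0.49 without replicate 3 of ΔK9.1, and it was called in none of the 9 fits that left out 1 library.

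**Figure D2:**
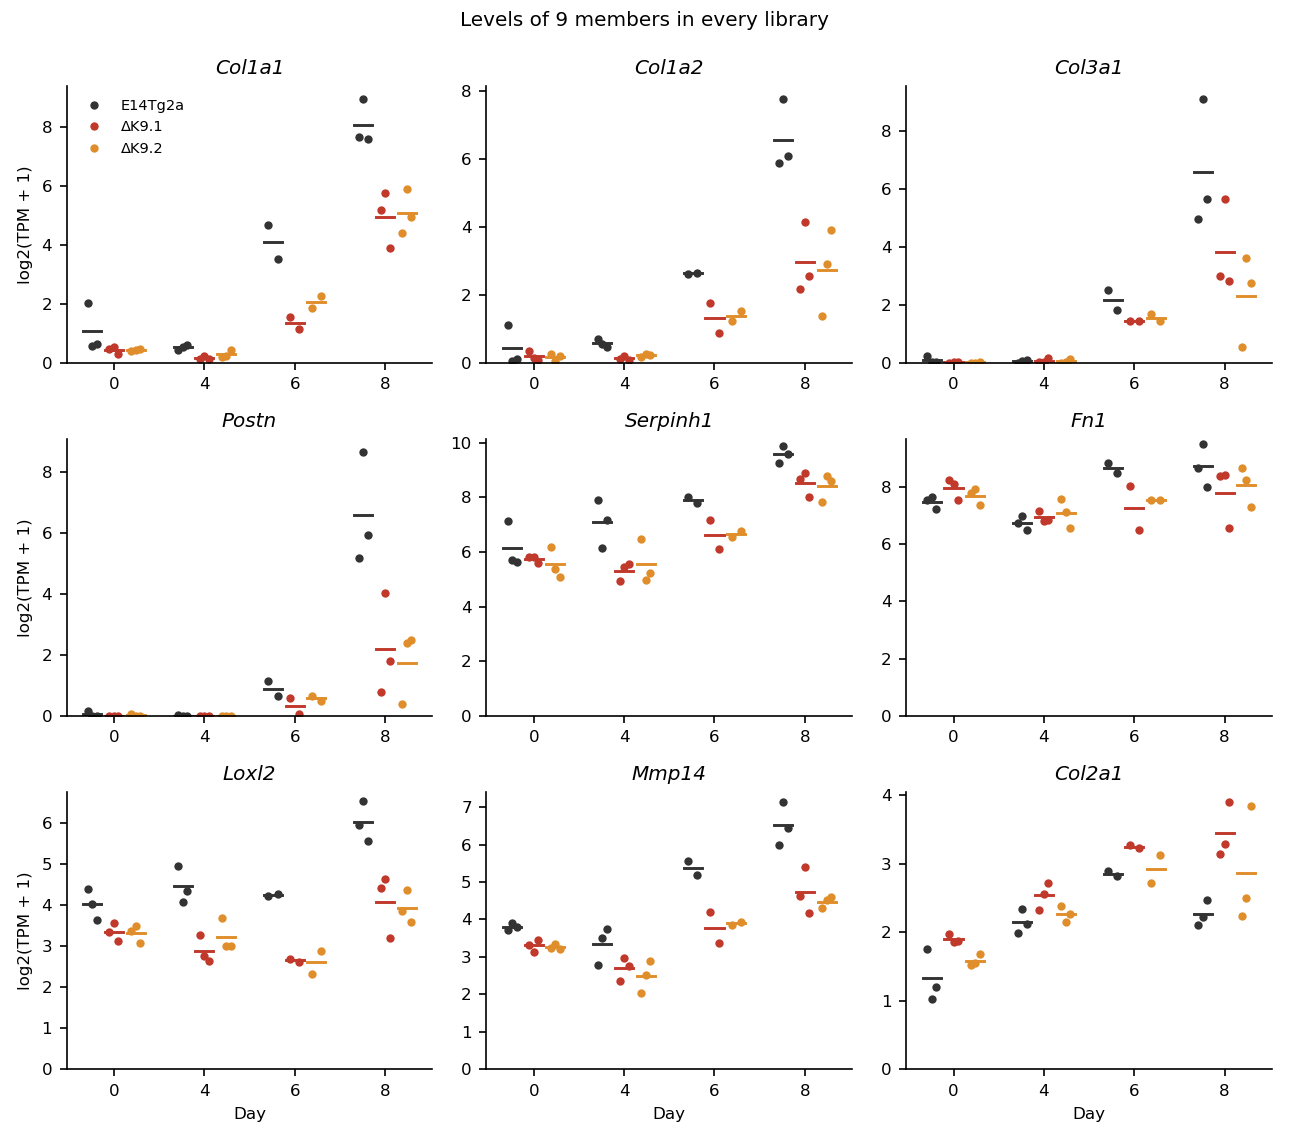
Levels of 9 members by day, as log2(TPM + 1), with 1 point per library and a bar at the mean of each line (E14Tg2a black, ΔK9.1 red, ΔK9.2 orange). On day 8 every clone point of Col1a1, Col1a2, Postn, Serpinh1, Loxl2 and Mmp14 lies below the E14Tg2a points, Fn1 overlaps, and Col2a1 is higher in the clones than in E14Tg2a in 5 of 6 libraries.

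Inside the cell, Serpinh1 was at 407, 471 and 257 TPM in ΔK9.1 and 224, 440 and 388 TPM in ΔK9.2, below the lowest E14Tg2a library at 611 TPM (-1.12 ± 0.37, adjusted p = 0.0368). The lysyl hydroxylases differed by less: Plod2 at 121, 110 and 114 TPM in E14Tg2a, 71.1, 67.8 and 53 TPM in ΔK9.1 and 46.1, 69.3 and 61.8 TPM in ΔK9.2 (-0.91 ± 0.27, adjusted p = 0.0193) did not overlap but stayed under the size of 1. Plod1 (-0.53) and Plod3 (-0.49) were also under it. Of the lysyl oxidase family, which cross-links collagen and elastin outside the cell, Loxl1 was lower, at 8.89, 23.5 and 16.2 TPM in E14Tg2a, 1.68, 4.23 and 2.97 TPM in ΔK9.1 and 1.08, 2.79 and 4.79 TPM in ΔK9.2 (-2.12 ± 0.25, adjusted p = 4.51e-06). Loxl2 was lower by a similar size (-2.01 ± 0.27). Loxl3 (-0.51 ± 0.18, adjusted p = 0.0482) and Loxl4 (0.54 ± 0.16, adjusted p = 0.0227) were under the size of 1 and not called.

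Of the MMPs, 3 of 10 were lower. Mmp14, the membrane-type enzyme that activates pro-MMP2, stood at 62.1, 140 and 85.5 TPM in E14Tg2a, 23.7, 41.5 and 17 TPM in ΔK9.1 and 18.6, 22 and 23.3 TPM in ΔK9.2 (-1.91 ± 0.26, adjusted p = 1.88e-05). Mmp2, a gelatinase, stood at 64.5, 155 and 137 TPM, 58.2, 67.4 and 44.1 TPM and 34.5, 59.3 and 69 TPM in the same order, with the clones reaching into the E14Tg2a range (-1.03 ± 0.25, adjusted p = 0.00478). Mmp15 (-1.04) was the third one, while Mmp9, the other gelatinase, was at 0.20 ± 0.33 (adjusted p = 0.732) and Mmp25 at 0.87 (adjusted p = 0.0396). Timp2 and Timp3 were lower by 1.12 and 1.28 on the log2 scale (-1.12 ± 0.28 and -1.28 ± 0.32), so both classes, proteases and inhibitors, held lower members. Timp1, which falls with differentiation in every line, was at 11.8, 11.7 and 15.4 TPM in E14Tg2a, 4.83, 8.37 and 7.47 TPM in ΔK9.1 and 5.67, 7.06 and 8.5 TPM in ΔK9.2 (-0.82, adjusted p = 0.00163).

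Of the ADAMTS proteases, 3 of 14 were lower and the others lay between -0.74 and 0.45. Adamts2, which removes the amino propeptide of fibrillar procollagens, read 12.4, 29.3 and 15.8 TPM in E14Tg2a, 1.35, 6.31 and 0.556 TPM in ΔK9.1 and 0.52, 1.71 and 1.14 TPM in ΔK9.2 (-2.93 ± 0.31, adjusted p = 1.35e-06). Adamts14, which acts on the same propeptides, was at 0.13 and had fallen in all lines by day 8. The versican-cleaving Adamts9 (-1.74 ± 0.33) and Adamts1 (-1.47 ± 0.30) were lower. None of the 4 ADAMTS-like proteins, which lack the protease domain, was called by limma. Among them 2 were lower at an unadjusted p under 0.05, as were 3041 of all 16336 genes.

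**Figure D3:**
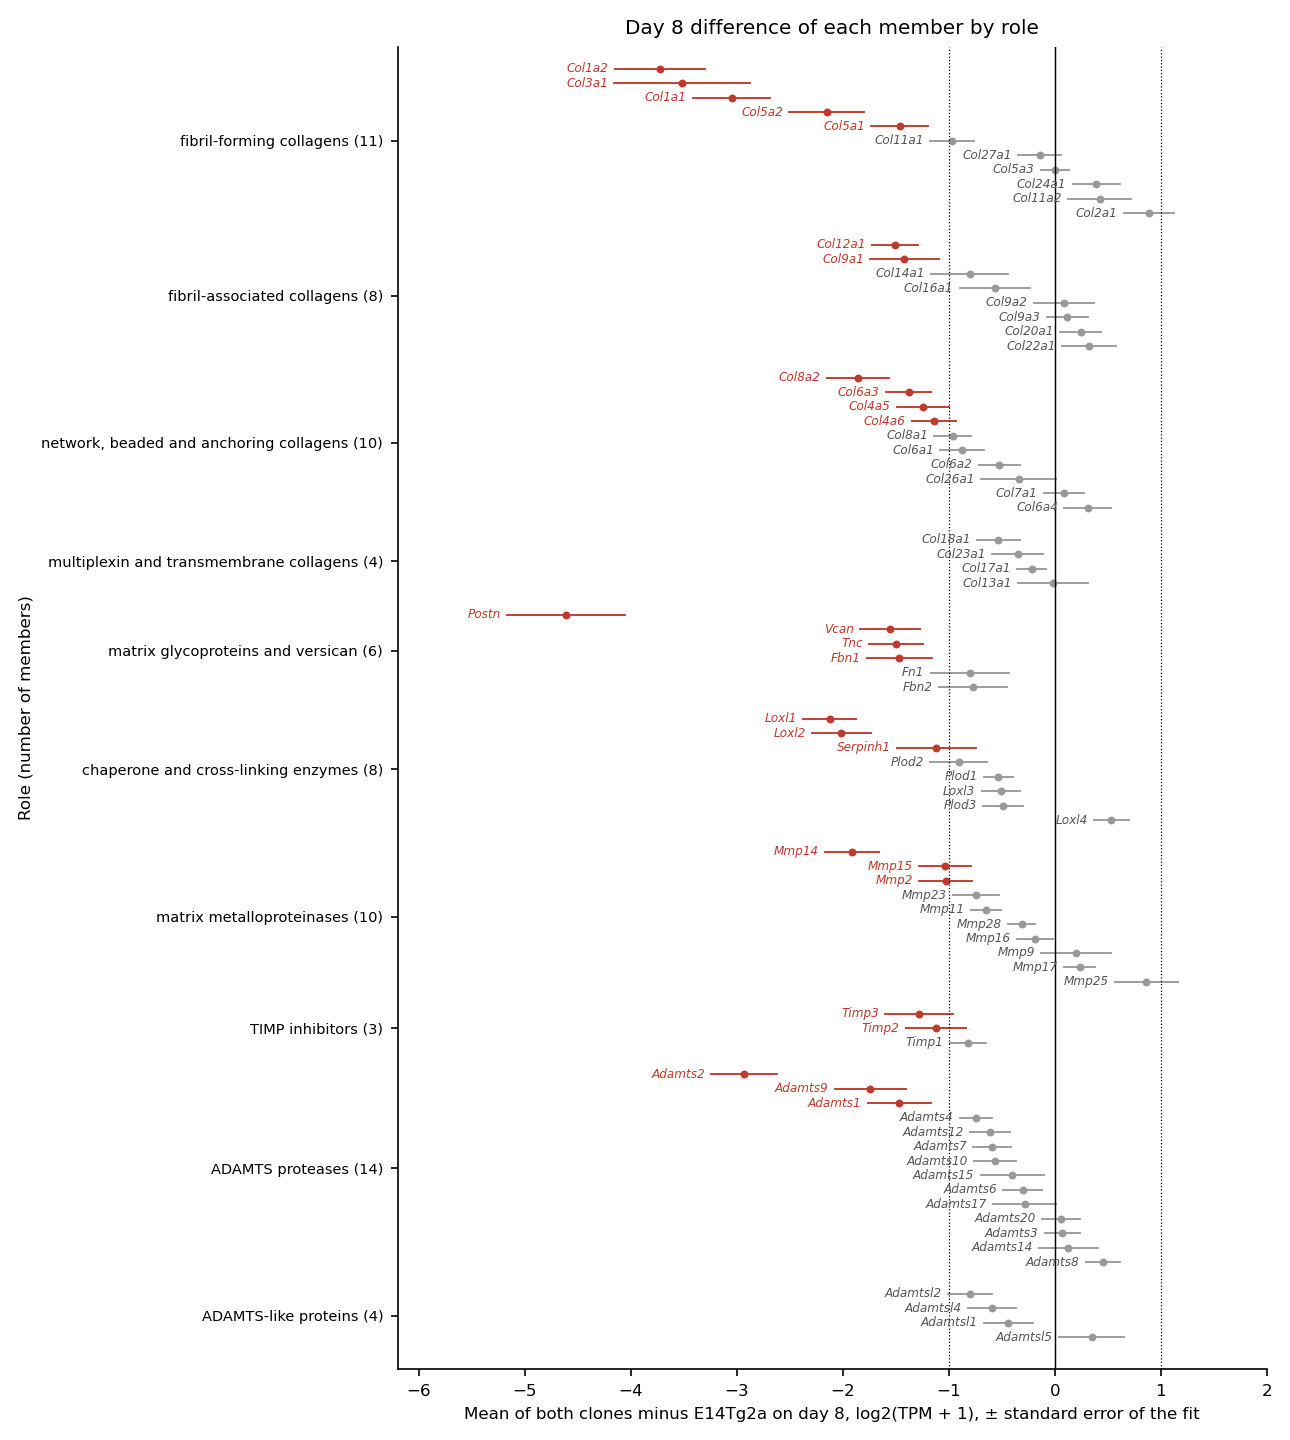
Difference between the mean of both clones and E14Tg2a on day 8 for each of the 78 members, on the log2(TPM + 1) scale, with bars of 1 standard error of the fit and the members ordered by role. The 26 called members are in red, dotted lines mark a difference of 1, and the fibril-forming chains span from Col1a2 at -3.73 to Col2a1 at 0.89.

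Taken alone, ΔK9.1 had 21 members below E14Tg2a (2.41% of all genes) and 1 above, Col2a1 (0.686%), and ΔK9.2 had 28 below (4.24%) and 0 above by limma (0.955%). In ΔK9.2, 4 members were above at an unadjusted p under 0.05, against 1801 of all 16336 genes. Both comparisons use the same E14Tg2a libraries. For single members, an exact two-sided permutation test of 3 E14Tg2a against 6 clone libraries, which can give no p below 0.0238, gave p = 0.0238 for Postn, Col1a1, Serpinh1, Loxl2 and Mmp14. It gave exact p = 0.0476 for Col3a1, 0.0714 for Mmp2 and 0.214 for Fn1. Libraries that do not overlap fix p at 0.0238, so this value only restates the non-overlap. The 6 libraries, 3 replicates of each of 2 clones, were permuted as separate units, so p does not measure the spread between clones. Between the clones on day 8, limma called 0 members higher (0.0%) and 0 lower (0.0%) in ΔK9.2. At an unadjusted p under 0.05 there were 2 and 4, against 233 and 757 of all 16336 genes. The largest difference among the members at this unadjusted p was that of Col3a1, at -1.52.

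The summed TPM of the members on day 8 was 939 to 1765 in the clone libraries (median 1306) and 2263 to 4969 in E14Tg2a, so the ranges did not overlap. The clone mean was 40.2% of the E14Tg2a mean, and 54.8% of it without replicate 2. The fibril-forming collagens stood lowest by this measure, at 54.0 to 179 TPM in the clones and 356 to 1427 TPM in E14Tg2a (14.2% of the mean, 27.8% without replicate 2). The sums did not overlap either for the ADAMTS proteases (45.4%, and 58.4% without replicate 2), the chaperone and cross-linking enzymes (47.8%, 53.0%), the MMPs (44.0%, 53.5%), the TIMPs (45.1%, 48.7%) and the network collagens (45.8%, 59.5%). They overlapped for the glycoproteins with versican (43.2%, and 69.6% without replicate 2), the fibril-associated collagens (58.3%, 81.4%), the multiplexin and transmembrane collagens (71.2%, 85.4%) and the ADAMTS-like proteins (62.8%, 69.1%). Serpinh1 alone had a mean of 775 TPM in E14Tg2a on day 8, out of a mean of 1053 TPM for the chaperone and cross-linking enzymes.

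**Figure D4:**
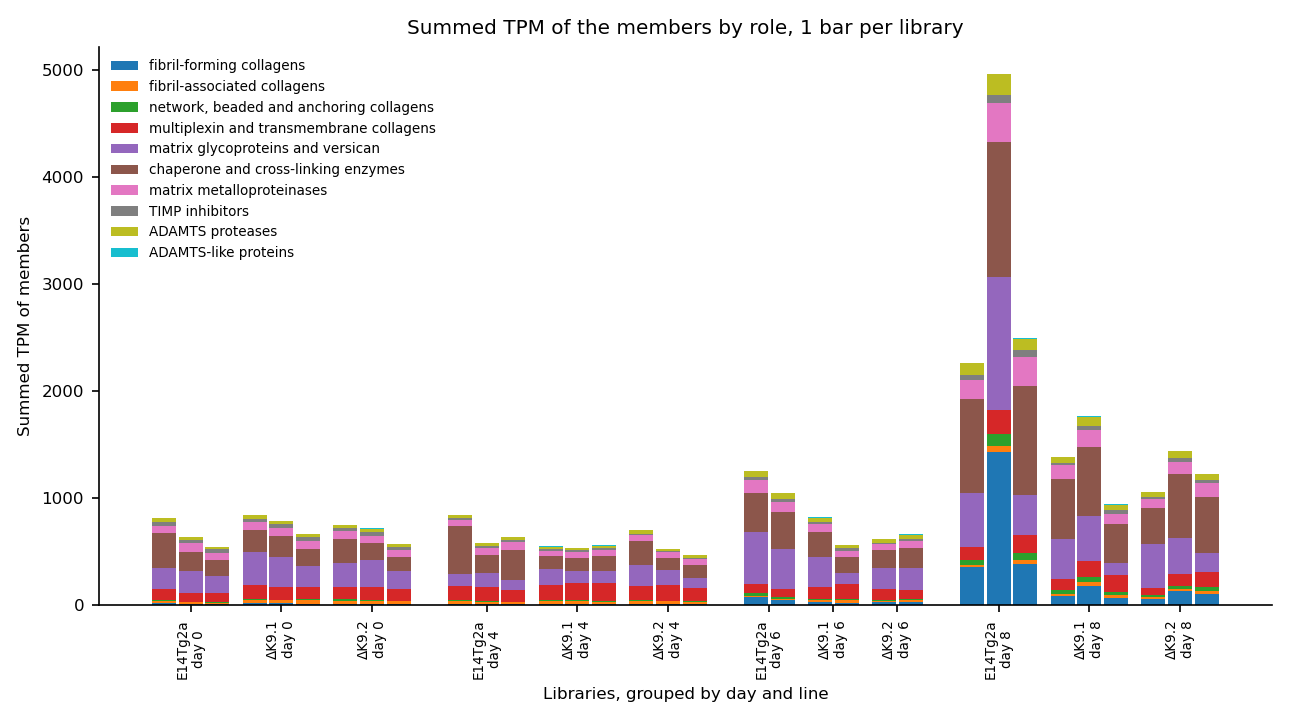
Summed TPM of the members in each library, 1 bar per library grouped by day and line, stacked by role. The 3 E14Tg2a bars of day 8 reach 2263, 4969 and 2492 TPM, the 6 clone bars of that day 939 to 1765 TPM, and the fibril-forming collagens fall from 356 to 1427 TPM in the former to 54.0 to 179 TPM in the latter.

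The change from day 0 to day 8 was compared between the lines directly, which removes differences already present on day 0. By this test the change was lower in the clones for 23 members (2.55% of all genes) and higher for 0 by limma (0.508%). A higher change at an unadjusted p under 0.05 was found for 0 members, against 1072 of all 16336 genes. The count of members with a lower change was 11 with a pseudocount of 0.1, 10 with only the groups compared, and 15 and 12 without replicate 2 or 3 of E14Tg2a on day 0. In the same order the count over all genes tested was 330, 221, 253 and 184, against 416 in the main fit. Postn (-4.57), Col1a2 (-3.47), Col3a1 (-3.44), Adamts2 (-3.05) and Col1a1 (-2.40) led. Loxl2 (-1.32, adjusted p = 0.0418) and Mmp14 (-1.39, adjusted p = 0.0227), in the chromosome 14 segment, were among them. Serpinh1 was not (-0.61, adjusted p = 0.543; -1.10 without E14Tg2a day 0 replicate 1 and -0.38 and -0.34 without its replicates 2 and 3, none called), and Plod1 was (-1.17). The other 22 were called higher by day 8 in E14Tg2a, in the libraries that this test also uses. For Plod1 the change was 0.32 in E14Tg2a (not called), -1.21 in ΔK9.1 (called lower), where its day 0 level was high, and -0.49 in ΔK9.2 (not called).

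The clones' own time courses share no library with that of E14Tg2a. From day 0 to day 8, 38 members rose (10.9% of all genes) and 7 fell (10%) in ΔK9.1, and 34 rose (11.0%) and 8 fell (11.3%) in ΔK9.2. Of the 51 risers of E14Tg2a, 36 were also called in ΔK9.1, 31 in ΔK9.2 and 30 in both. Col1a1 had the largest rise in both clones (4.52 for ΔK9.1, 4.63 for ΔK9.2). Serpinh1 rose by 2.78 and 2.85, and Col4a5 by 3.00 and 2.72. The 14 called in neither clone were Adamts9, Adamts12, Col5a2, Col6a3, Col8a1, Col11a1, Col12a1, Col16a1, Col27a1, Fn1, Loxl1, Loxl2, Mmp23 and Plod3. Called higher in a clone but not in E14Tg2a were Col2a1 and Mmp25 in both clones, and Col24a1.

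Set on the time course of E14Tg2a, the day 8 mean of the clones lay between the E14Tg2a means of day 6 and day 8 for 41 of the 51 risers in ΔK9.1 and 36 in ΔK9.2. It was at or below the day 6 mean for 7 and 12. Both clones were above the E14Tg2a day 6 mean for 38 risers and both below it for 6. Among the 26 called lower the numbers were 19 and 3, and among all 78 members 58 and 11. The risers and the 26 were chosen by the same day 8 libraries, which favours a place below the E14Tg2a day 8 mean, so these counts are a description. Postn in the clones on day 8, at 0.303 to 15.3 TPM, was below E14Tg2a of the same day, but both clone means were above its day 6 libraries' mean (1.19 and 0.572 TPM). Loxl2 went the other way in ΔK9.2, where 13.6, 19.6 and 11 TPM on day 8 compare with 17.6 and 18.5 TPM in E14Tg2a on day 6. Loxl4 was lower in the clones on day 6 and read 1.25 to 2.12 TPM in E14Tg2a and 1.19 to 4.86 TPM in the clones on day 8, with the 3 ΔK9.2 libraries above all of E14Tg2a.

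Without replicate 2 of E14Tg2a on day 8, 16 of the 26 members were still called lower, and no other was (1.86% of all genes). These were Col1a1, Col1a2, Col3a1, Col5a1, Col5a2, Col8a2, Col12a1, Postn, Tnc, Fbn1, Vcan, Loxl1, Loxl2, Mmp14, Adamts2 and Adamts9. Postn then had -3.58, Col1a2 -3.13, Col1a1 -2.61, Adamts2 -2.59, Col3a1 -2.25 and Col5a2 -1.34. The calls of Adamts1, Col4a5, Col4a6, Col6a3, Col9a1, Mmp2, Mmp15, Serpinh1, Timp2 and Timp3 were lost, Serpinh1 at -0.96 (adjusted p = 0.196). For the change from day 0 to day 8, 8 of the 23 were still called without it (0.867% of all genes), Adamts1, Adamts2, Col12a1, Col1a2, Col5a2, Loxl1, Plod1 and Postn. The rise in E14Tg2a itself was still called for 47 members (14.8% of all genes). Replicate 2 was also the highest of the 3 day 8 libraries in 25 of the 26 members in ΔK9.1 and in 15 of the 26 in ΔK9.2. With replicate 2 left out in all 3 lines, a setting added after the data were seen, 22 of the 26 were called lower (2.97% of all genes), all but Col4a6, Mmp2, Serpinh1 and Timp3, and 1 member, Mmp25, higher (1.02%). The change from day 0 was then lower in the clones for 19 members (2.40%), 17 of them among the 23.

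Of 50 other genes of collagen processing and of the surrounding matrix, 42 were in the table, and 29 of them rose and 3 fell in E14Tg2a by day 8 (15.9% and 11.0% of all genes). In the clones limma called 17 of them lower by day 8 (3.42% of all genes), after 3 in the day 4 aggregates (0.71%) and 2 at day 6 (1.37%). The 17 included Bmp1 (-1.68), the procollagen C-proteinase, Sparc (-1.80), a collagen-binding glycoprotein, P4ha1 (-1.26) and P3h1 (-1.17), which hydroxylate prolines, Fkbp10 (-1.17), a collagen chaperone, and Lum (-2.46), lumican. Bgn, biglycan, was at -0.35 and not called.

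Markers of several cell types differed between the lines on days 4, 6 and 8. On day 8 the summed markers of visceral endoderm lay between 172 and 343 TPM in E14Tg2a, between 3.14 and 29.8 TPM in ΔK9.1 and between 4.15 and 16.2 TPM in ΔK9.2, with 7 of 8 called lower. Those of primitive and parietal endoderm were 349 to 408 TPM against 68.0 to 175 and 90.9 to 119 TPM (5 of 8 lower), those of mesenchyme and smooth muscle 590 to 1076 TPM against 262 to 495 and 273 to 547 TPM (3 of 11 lower; list median -0.36), those of cardiac muscle 39.6 to 92.2 TPM against 11.9 to 26.5 and 20.1 to 24.7 TPM (5 of 6 lower), and those of endothelium and blood 913 to 3902 TPM against 51.5 to 1578 and 44.4 to 231 TPM (5 of 7 lower; Hbb-bh1 makes up most of the E14Tg2a sum). Acta2, smooth muscle actin, made up much of the mesenchyme and smooth muscle sum, at 193, 620 and 263 TPM in E14Tg2a and means of 79.3 and 57.5 TPM in the clones, while Cnn1 (0.64) and Thy1 (0.72) of that list were not called. Of the cartilage and neural markers, 0 of 3 and 0 of 5 were called. The pluripotency markers were 133 to 271 TPM in E14Tg2a and 296 to 930 TPM in the clones, with 4 of 6 higher. Pou5f1 made up most of that sum in every library of E14Tg2a, and Klf4 of the same list was at -0.96 (adjusted p = 0.00138, under the size of 1). On day 4, when Serpinh1 and Loxl2 were lower, 8 of 8 visceral endoderm markers (86.4 to 738 TPM against 2.12 to 37.0 and 14.2 to 163 TPM) and 3 of 8 primitive and parietal endoderm markers were lower as well. On day 6, when 6 members were lower, those called lower were Afp and Ttr of visceral endoderm (sum 16.7 to 129 TPM in E14Tg2a, at most 2.58 TPM in any clone library), Gata4 of primitive and parietal endoderm, Actc1 and Myl7 of cardiac muscle and Kdr of endothelium and blood. The part of these cell types in the levels of the members was not tested.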

How the data were processed

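RNA-seq of polyadenylated RNA was analysed in 33 libraries of 3 lines and 4 days. Before deposition the authors used STAR to map the strand-specific read pairs to mm10 and RSEM to compute TPM per gene (versions not given in the sources used here), and they left out libraries that stood apart in a principal component analysis. The deposited table also holds fold changes and FDRs from DESeq2, which were not used. TPM carries no read count: a nominal depth is stated for the libraries as a whole, but the depth of each is unknown from these values and no counting interval is given; the number of libraries limits the precision.

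TPM was tested as log2(TPM + 1) with limma 3.58.1 in R 4.3.3 (moderated by empirical Bayes with a trend, 1 mean per line and day, all 33 libraries, Benjamini-Hochberg adjustment over all 16336 genes). Day 0 used its 9 libraries and genes with at least 1 TPM. The clones' contrast is the mean of both clones. Single members were also tested with exact permutation tests (scipy 1.17.1). Groups came from the sample titles. The alternatives tried were median-ratio scaling, another pseudocount (0.1), another low-value filter (5 TPM, or no filter), a replicate block, only the groups compared, leaving out each library and, added after the data were seen, leaving out replicate 2 of day 8 in all lines. Members, roles and gene lists were chosen with earlier results of these data known. Members named are a fixed list, the 5 largest non-overlapping rises and falls of each comparison and all members of counts up to 5; any other was chosen after its values were seen. Gene positions are from GENCODE M21, promoters from RefSeq (GRCm38.p6).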

Additional observations from a re-analysis of the deposited data

Results flagged for a closer look

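In limma, 23 members passed the test of whether clones and E14Tg2a had changed unequally by day 8 (adjusted p under 0.05, difference above 1 on the log2 scale), in each case with the lower change in the mean of the clones. Among the collagens the differences were -3.47 for Col1a2, -3.44 for Col3a1, -2.40 for Col1a1, -2.15 for Col5a2, -1.82 for Col8a2, -1.73 for Col5a1, -1.53 for Col12a1, -1.34 for Col6a3, -1.06 for Col4a6 and -1.02 for Col6a1. Among the glycoproteins they were -4.57 for Postn, -1.72 for Vcan and -1.45 for Tnc. Among the cross-linking and hydroxylating enzymes they were -2.23 for Loxl1, -1.32 for Loxl2 and -1.17 for Plod1. Among the proteases they were -3.05 for Adamts2, -2.06 for Adamts1, -1.61 for Adamts9, -1.39 for Mmp14, -1.21 for Mmp15, -1.16 for Mmp2 and -1.03 for Mmp23. The other 22 had risen in E14Tg2a, while Plod1 had not and fell in ΔK9.1, whose libraries were high on day 0. Of the 23, 8 were called without replicate 2 of E14Tg2a on day 8, and 17 without replicate 2 of all 3 lines. The count was 11 with a pseudocount of 0.1, 10 with only the groups compared and 12 without replicate 3 of E14Tg2a on day 0. Over all genes tested, 416 had a lower change in the main fit. In the order of these alternatives the number was 141, 389, 330, 221 and 184.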

How the results depend on the processing

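With a pseudocount of 0.1, the members called on day 4 of E14Tg2a were 8 higher and 8 lower, those lower on day 8 in ΔK9.1 were 12, those higher in the clones on day 8 were 3, and those with a lower change from day 0 to day 8 were 11. Over all genes these counts were 1008, 992, 2205, 393 and 330, in the same order. With a minimum of 5 TPM, 5 members fell by day 6 and 3 by day 8 in E14Tg2a and 5 in ΔK9.2. With only the groups compared, the clones had 1 lower member on day 4 (0.128% of all genes), 3 on day 6 (0.821%) and 16 on day 8 (2.04%), and a lower change for 10 (1.38%). With a replicate block, 2 members, Col9a2 and Col26a1, were higher on day 0 (over all genes 68 higher and 77 lower, against 0 and 11) and 1 on day 6, and over all genes 145 were higher and 576 lower on day 8. The lines were differentiated in parallel, but the labels do not say that a number marks 1 assay; same-number libraries had a median correlation of deviations of 0.222 over 33 pairs (31 above 0.1), and others -0.127. With replicate 2 of day 8 left out in all lines, 1 member was higher in the clones. The other 115 counts stayed within 1.5 times.

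Leaving out 1 library, members called higher and lower ranged from 2 to 5 and 3 to 5 on day 4 of E14Tg2a, 21 to 28 and 7 to 9 on day 6, 47 to 54 and 4 to 6 on day 8, 26 to 44 and 5 to 10 in ΔK9.1 and 28 to 39 and 6 to 9 in ΔK9.2. For the clones they ranged from 0 to 1 and 0 to 0 on day 0, 0 to 0 and 1 to 3 on day 4, 0 to 2 and 0 to 11 on day 6, 0 to 1 and 16 to 30 on day 8, and 0 to 0 and 8 to 29 for the change. Members called higher were 5 without E14Tg2a day 0 replicate 1 or day 4 replicate 2 (day 4 of E14Tg2a), and in the clones 1 without E14Tg2a day 0 replicate 1 (day 0), 2 without ΔK9.1 replicate 2 (day 6) and 1 without ΔK9.2 replicate 1 or 2 (day 8). On day 6 such a fit leaves 1 library in a group, and the number called lower moved for all genes as well as for the members. The lowest counts on days 4 and 8 came without E14Tg2a day 4 replicate 3 (1, with 35 of all genes) and day 8 replicate 2 (16, with 302). For the change the count was 8 without day 8 replicate 2 (141 of all genes), 15 without day 0 replicate 2 (253) and 12 without day 0 replicate 3 (184). Mmp9 on day 8 ranged from -0.11 without E14Tg2a replicate 3 to 0.56 without replicate 2. The cause was not tested. TPM does not give depth, so low genes have unknown precision.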
